A study of Mus musculus with 12 samples.

Results

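Rod-TRAP RNA of Pkm2 Rodko mice was compared with the total retinal RNA of the same genotype, to describe which transcripts were enriched on rod ribosomes and which were depleted when both floxed Pkm2 alleles were deleted in rods. The comparison uses 6 of the 12 libraries of the series, 3 of Pkm2 Rodko rods and 3 of Pkm2 Rodko retina, chosen by their labels. The other 6 libraries, 3 of control rods and 3 of control retina, enter the estimate of the spread and a test of whether enrichment differed between genotypes. Pkm2 Rodko mice were RiboTag mice with the i75 Rod-Cre transgene and 2 floxed Pkm2 alleles, and their littermate controls had the same RiboTag allele and Cre with 1 floxed allele, so both genotypes expressed Cre and the controls still carried a deletable allele. Cre was driven by a promoter that is active in rods. The tissue was frozen after perfusion with cycloheximide, and polyadenylated RNA was sequenced. The deposited description gives an age of 2 weeks, and the methods give 2 months for TRAP assays.

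In RiboTag mice, Cre recombinase attaches a hemagglutinin tag to RPL22, a protein of the large cytosolic ribosomal subunit, and antibodies to the tag pull down the ribosomes of the Cre-expressing cells with the mRNA that they are translating. Rods are the most numerous cells of the mouse retina. They detect dim light with the stacked membrane discs of the outer segment, and they are known for a high rate of glycolysis in the presence of oxygen. Pyruvate kinase catalyses the last step of glycolysis, and Pkm encodes its M1 and M2 forms by alternative splicing.

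The reads on each gene were recovered from the deposited values and scaled by TMM over all 12 libraries, so that rods and retina stand on a common scale. The unit is called scaled reads here. The Rodko libraries held 15591452 to 22173144 reads on genes. A log2 difference is rods minus retina on log2(scaled reads + 1), which understates the difference of genes with few reads. Of 56748 genes in the table, 16200 had a mean of at least 10 scaled reads over the 6 Rodko libraries and were tested by limma with Benjamini-Hochberg adjustment. A gene is called enriched or depleted in rods at an adjusted p under 0.05. The labels do not say whether the libraries of a group came from separate animals, so the p-values measure the spread between these libraries. In total RNA and in TRAP, fewer cells of a type and less RNA per cell cannot be told apart.

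Pkm (ENSMUSG00000032294) had 29475, 27630 and 27316 scaled reads in the 3 rod libraries and 16415, 16527 and 16950 in the 3 retina libraries, and every rod library lay above every retina library. In control mice, the same gene had 64409, 62942 and 67987 scaled reads in rods and 25736, 27939 and 25781 in retina, so that each Rodko library lay below each control library of its fraction. The Rodko means were 28140 ± 1166 scaled reads in rods and 16631 ± 282 in retina (SD, n = 3), a log2 difference of 0.76 (SE 0.0712, adjusted p = 2.14e-07 from limma). A two-sided exact permutation test of the 3 against 3 values gave p = 0.1, the smallest that 20 splits allow. Of the genes tested, 3100th in order of enrichment was Pkm, with 19.1% of genes above it. The enrichment in control mice was 1.30. The difference between genotypes was -0.54 (unadjusted p = 9.70e-05, adjusted p = 0.785 from limma), the second smallest p of all genes and not past the threshold, and by DESeq2 on the recovered reads Pkm was the 1 gene that passed it. The table holds 1 entry for the gene, so reads of the M1 and M2 forms and of any transcript left after deletion are counted together. The size of the enrichment depended on the scaling. It was 0.17 (adjusted p = 0.0303) with total reads and 0.15 (adjusted p = 0.0676) on the deposited values, both from limma.

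Across all genes, 6139 (37.9%) were enriched in Rodko rods and 6091 (37.6%) were depleted, and 3970 (24.5%) were not called. With a log2 difference of at least 1 in size as a second condition, 1567 genes (9.67%) were enriched and 4877 (30.1%) depleted. The difference had the same sign in all 3 rod and retina pairs of the same replicate number for 86.3% of genes. The 3 rod libraries lay above the 3 retina libraries for 6433 genes (39.7%) and below them for 6262 (38.7%). The 2 sides had different shapes. Among 9071 genes with a mean of at least 200 scaled reads, the highest log2 difference was 2.15 and 9 genes were above 2, while 39 were below -4. The median gene lay at 0.06, the 25% and 75% points of all genes were -1.69 and 0.63, and the 5% and 95% points were -3.58 and 1.20.

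**Figure D1:**
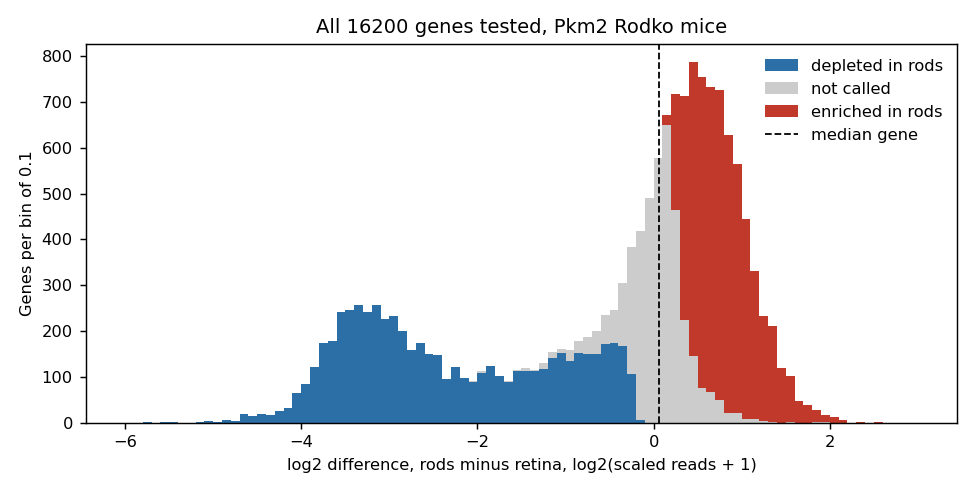
Number of genes (vertical axis) by log2 difference of rods minus retina in Pkm2 Rodko mice (horizontal axis, bins of 0.1) for the 16200 genes tested, with depleted genes in blue, enriched genes in red, genes not called in grey and the median gene (0.06) as a dashed line. Depleted genes form a broad second mode below -3, and enriched genes end near 2.

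The zero of this scale is set by the scaling. With reads scaled by total reads the median gene moved to -0.54, and on the deposited values, in which rods and retina have separate scales, to -0.56. The calls were then 2237 enriched and 9364 depleted of 16425 genes, or 2108 and 9510 of 16447. Enriched genes made up 19.3% or 18.1% of calls in place of 50.2%. Counts of list members with total reads, given below, stand against these counts over all genes. Counts with TMM stand against 37.9% enriched and 37.6% depleted. Relative to the median gene, the median of the rod phototransduction list was 1.83 with TMM and 1.84 with either other scaling, that of the bipolar list was -3.32, -3.30 and -3.29, and that of the glycolysis list was 1.03, 1.04 and 1.04. A change of scaling shifts all genes by nearly the same amount, so these values had to be close and are no test of the lists. A log2 difference given below is on the TMM scale, and where the sign of a named gene or of a list median changed with total reads or on the deposited values, that value is given beside it.

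In the rod phototransduction list, which holds the proteins that turn a photon into a change of membrane current and end the response, 21 of 21 members were enriched, with a median log2 difference of 1.89. The same median was 1.81 to 1.90 in the 3 replicate pairs. The list took 20.6% to 22.2% of all reads in Rodko rods and 8.01% to 8.72% in Rodko retina.

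Gnat1 (ENSMUSG00000034837), the alpha subunit of rod transducin, had 580175, 519692 and 509684 scaled reads in the 3 rod libraries and 140544, 122127 and 120137 in the 3 retina libraries, a log2 difference of 2.07 (SE 0.117, adjusted p = 1.13e-09 from limma). No rod library overlapped with a retina library. Pdc (ENSMUSG00000006007), phosducin, which binds the beta and gamma subunits of transducin, had the highest difference of the list. It had 148202, 139558 and 141994 scaled reads in the 3 rod libraries and 33992, 29299 and 34044 in the 3 retina libraries, a log2 difference of 2.15 (SE 0.0971, adjusted p = 1.69e-10 from limma). Genes of the other steps were close to these. The phosphodiesterase subunits Pde6a, Pde6b and Pde6g were at 1.89, 1.89 and 1.92, the channel subunit Cnga1 was at 1.90, rod arrestin (Sag) was at 2.01 and the guanylate cyclase activators Guca1a and Guca1b were at 2.03 and 1.93. Other members that end the response were lower in the order than arrestin. Grk1, a receptor kinase of photoreceptors, was at 1.20, and Rgs9, which speeds the hydrolysis of GTP by transducin, was at 1.21. The lowest was Rgs9bp, the membrane anchor of RGS9, at 0.72, whose call was lost with total reads (0.13).

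**Figure D2:**
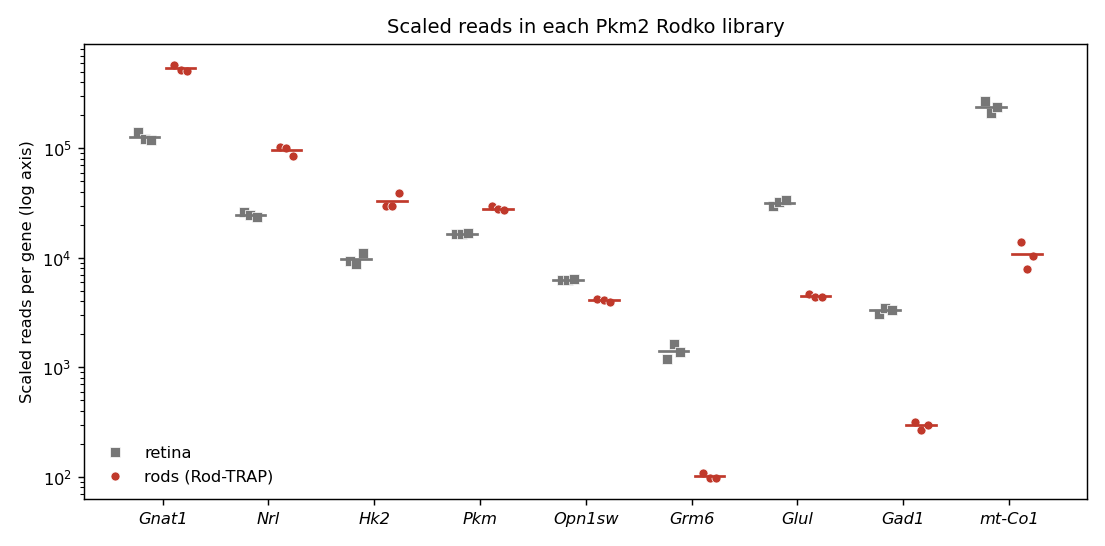
Scaled reads (vertical log axis) of 9 genes in each of the 6 Pkm2 Rodko libraries, with retina as grey squares, rods as red circles and horizontal bars at the mean of 3 libraries. Gnat1, Nrl, Hk2 and Pkm are higher in every rod library, and Opn1sw, Grm6, Glul, Gad1 and mt-Co1 are lower in every rod library.

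Of 19 genes of outer segment structure and retinoid handling, 17 were enriched, with a median of 1.64. With total reads the median was 1.05, with 15 enriched and 2 depleted. Prph2 and Rom1, the tetraspanins of the disc rim, were at 1.90 and 1.98. Rbp3, the retinoid-binding protein that photoreceptors secrete, was at 1.81. Rpgrip1, a protein of the connecting cilium, was depleted. It had 3407, 3819 and 4383 scaled reads in the 3 rod libraries and 6220, 4384 and 7728 in the 3 retina libraries, a log2 difference of -0.63 (SE 0.175, adjusted p = 0.00465 from limma), and its highest rod value and lowest retina value were nearly equal. Fam161a, a ciliary microtubule protein, was not called (0.09, and -0.49 with total reads).

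All 12 photoreceptor transcription factors tested were enriched, with a median of 1.29. With total reads the median was 0.71, with 9 enriched. The factors that set rod identity led the list. Nrl (ENSMUSG00000040632), the leucine zipper factor required for rod fate, had 103799, 101371 and 85358 scaled reads in the 3 rod libraries and 26070, 24740 and 23729 in the 3 retina libraries, a log2 difference of 1.96 (SE 0.098, adjusted p = 3.82e-10 from limma). Nr2e3, a nuclear receptor that represses cone genes in rods, was at 1.84, Esrrb at 1.78 and Crx, a homeobox factor of both photoreceptor types, at 1.59. Rorb and Prdm1 were at 0.65 and 0.69. Neurod1 was the lowest at 0.53, and its value was -0.06 with total reads and -0.08 on the deposited values.

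Among 29 genes of the cilium and of intraflagellar transport, 26 were enriched and none was called depleted by limma, with a median of 0.90, so the list lay between the outer segment genes and the median gene. The 3 highest were subunits of the BBSome, which carries membrane proteins in the cilium, with Bbs7 at 1.73, Bbs9 at 1.71 and Bbs5 at 1.67. Ift20 (0.11), Rpgr (0.04) and Iqcb1 (-0.26) were not called, and with total reads they were at -0.48, -0.54 and -0.84. With total reads, 16 members of this list were enriched and 4 depleted.

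Of 16 genes of the photoreceptor synapse, 12 were enriched and 2 depleted, with a median of 0.95. With total reads the median was 0.37, with 10 enriched and 5 depleted. The most enriched members were Egflam, pikachurin of the synaptic cleft (1.86), the complexin Cplx4 (1.78) and the calcium-binding protein Cabp4 (1.70). Ctbp2 and Cacna1f had smaller differences. Their means were 8285 and 4553 scaled reads in rods and 4553 and 2935 in retina. Both depleted members were scaffolds of the active zone that other retinal neurons also use. Bsn had 710, 697 and 911 scaled reads in the 3 rod libraries and 1974, 2356 and 2377 in the 3 retina libraries, and Pclo had 901, 1056 and 1179 in rods and 2822, 2509 and 3317 in retina. Their log2 differences were -1.54 and -1.46, and neither gene had overlapping libraries. Snap25, a membrane fusion protein of most nerve terminals, was not called (-0.16, adjusted p = 0.0584 from limma), and with the replicate number as a block it was depleted (adjusted p = 0.0381 from limma). Syt1, the calcium sensor of vesicle release, was at 0.34 and turned to -0.24 with total reads.

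What the enriched genes share in their promoters was described by counting short letter strings in the 250 bases before RefSeq transcription starts (GRCm38.p6), on both strands. TAATCC, the core string bound by Crx and related homeobox factors, was held by 14 of 36 promoters (38.9%) of the 31 genes of the phototransduction and outer segment lists that matched by symbol. It was held by 15.0% of the promoters of the 200 most enriched protein-coding genes and by 6.03% of those of the 200 most depleted. The share was 5.16% for all protein-coding genes tested and 6.25% for all promoters in the table. Of the 200 most enriched genes 163 had a promoter here, and of the 200 most depleted 141. The sets overlap, since many genes of the 2 rod lists are among the 200 most enriched. GGGCGG, the core of the GC box, went the other way, with 19.4% of promoters in the 2 rod lists, 46.7% in the 200 most enriched, 50.8% in the 200 most depleted and 56.7% in all protein-coding genes tested. TGCTGA, which begins the recognition string of Maf factors such as Nrl, was in 22.2%, 20.1%, 13.6% and 13.0% of the same 4 sets. TATAAA was in 19.4%, 11.7%, 7.54% and 6.45%. The shares over all promoters were 32.7% for GGGCGG, 16.1% for TGCTGA and 12.4% for TATAAA. None of these strings shares its whole length with another, and a match is a description of letters. The 120 bases before the start are shown for 4 rod genes with a TAATCC match and, for contrast, for Grm6, a depleted gene of bipolar cells that has no match in its 250 bases. These 5 were chosen after the matches were seen. Capitals mark TAATCC, or GGATTA where the match is on the other strand, and all are written 5′ to 3′ in the direction of transcription.
Sag (chr1:87803560-87803679, plus strand): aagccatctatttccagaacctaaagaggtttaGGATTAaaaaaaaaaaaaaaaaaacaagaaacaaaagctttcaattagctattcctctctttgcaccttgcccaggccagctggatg
Guca1a (chr17:47400607-47400726, minus strand): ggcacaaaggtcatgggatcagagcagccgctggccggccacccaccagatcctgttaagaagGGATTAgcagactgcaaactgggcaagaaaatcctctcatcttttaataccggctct
Gngt1 (chr6:3993888-3994007, plus strand): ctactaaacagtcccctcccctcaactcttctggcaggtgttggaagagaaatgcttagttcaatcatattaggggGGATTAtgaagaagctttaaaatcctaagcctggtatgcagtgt
Rbp3 (chr14:33953883-33954002, plus strand): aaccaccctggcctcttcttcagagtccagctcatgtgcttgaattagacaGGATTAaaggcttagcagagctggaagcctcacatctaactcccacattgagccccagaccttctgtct
Grm6 (chr11:50850565-50850684, plus strand): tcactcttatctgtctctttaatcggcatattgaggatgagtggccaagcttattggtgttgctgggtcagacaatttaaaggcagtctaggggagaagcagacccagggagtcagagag
The match begins 87 bases before the start in Sag, 57 in Guca1a, 44 in Gngt1 and 69 in Rbp3. The log2 differences of these genes were 2.01, 2.03, 1.98 and 1.81, against -3.78 for Grm6. Pdc, Nrl, Rom1, Prph2 and Hk2 were enriched and had no match in this window.

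By the rule of the largest difference among genes with at least 200 scaled reads and no overlap, the leading genes included Pdc, Hmgb2, Gnat1, Kpna2, Guca1a, Sag, Pla2g7, Vtn, Rom1, Gngt1 and Nrl, from 2.15 down to 1.96. Of these, 4 are on none of the rod lists. Hmgb2, a chromatin protein, had 2350, 2252 and 2237 scaled reads in the 3 rod libraries and 568, 465 and 585 in the 3 retina libraries, a log2 difference of 2.08 (SE 0.0914, adjusted p = 1.28e-10 from limma). Kpna2, an importin of the nuclear pore pathway, was at 2.03, and Pla2g7, which degrades platelet-activating factor, was at 1.99. The other is Vtn, described with the vascular list. In the order of mean levels per kilobase of exon over all genes tested, Pkm was 102nd in rods and 110th in retina, and Hk2 was 103rd in rods and 248th in retina.

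Cone genes were lower in rods by a smaller amount, as a median, than the markers of other cells described below (-0.67 against -3.27). Of 15 tested, 13 were depleted and 1 was enriched, with a median of -0.67. Opn1sw, the short-wavelength opsin, had 4220, 4117 and 3917 scaled reads in the 3 rod libraries and 6247, 6237 and 6377 in the 3 retina libraries, a log2 difference of -0.62 (SE 0.0721, adjusted p = 1.98e-06 from limma), and the libraries did not overlap. Opn1mw was at -0.52 and cone arrestin (Arr3) at -0.94. Thrb, the thyroid hormone receptor that sets the green cone fate, was the enriched member. It had 2106, 2496 and 2595 scaled reads in the 3 rod libraries and 1444, 1525 and 1631 in the 3 retina libraries, a log2 difference of 0.64 (SE 0.0891, adjusted p = 1.26e-05 from limma), and this call was lost with total reads (0.06). Gnb3, the cone transducin beta subunit, was not called (-0.21, SE 0.299).

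Rods and cones use different members of the same gene families, and the 2 members stood on opposite sides in Rodko mice. These sets were put together after the values were seen, and their values are given as a description. Rod Gnat1 was at 2.07 and cone Gnat2 at -0.67. Rod Gngt1 was at 1.98 and cone Gngt2 at -0.57, rod Pde6g at 1.92 and cone Pde6h at -0.59, rod Cnga1 at 1.90 and cone Cnga3 at -0.50, rod Cngb1 at 1.48 and cone Cngb3 at -1.15. The widest gap was between the exchangers Slc24a1 (1.74) and Slc24a2 (-2.43), which remove calcium from the cell. Other neurons also express Slc24a2.

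**Figure D3:**
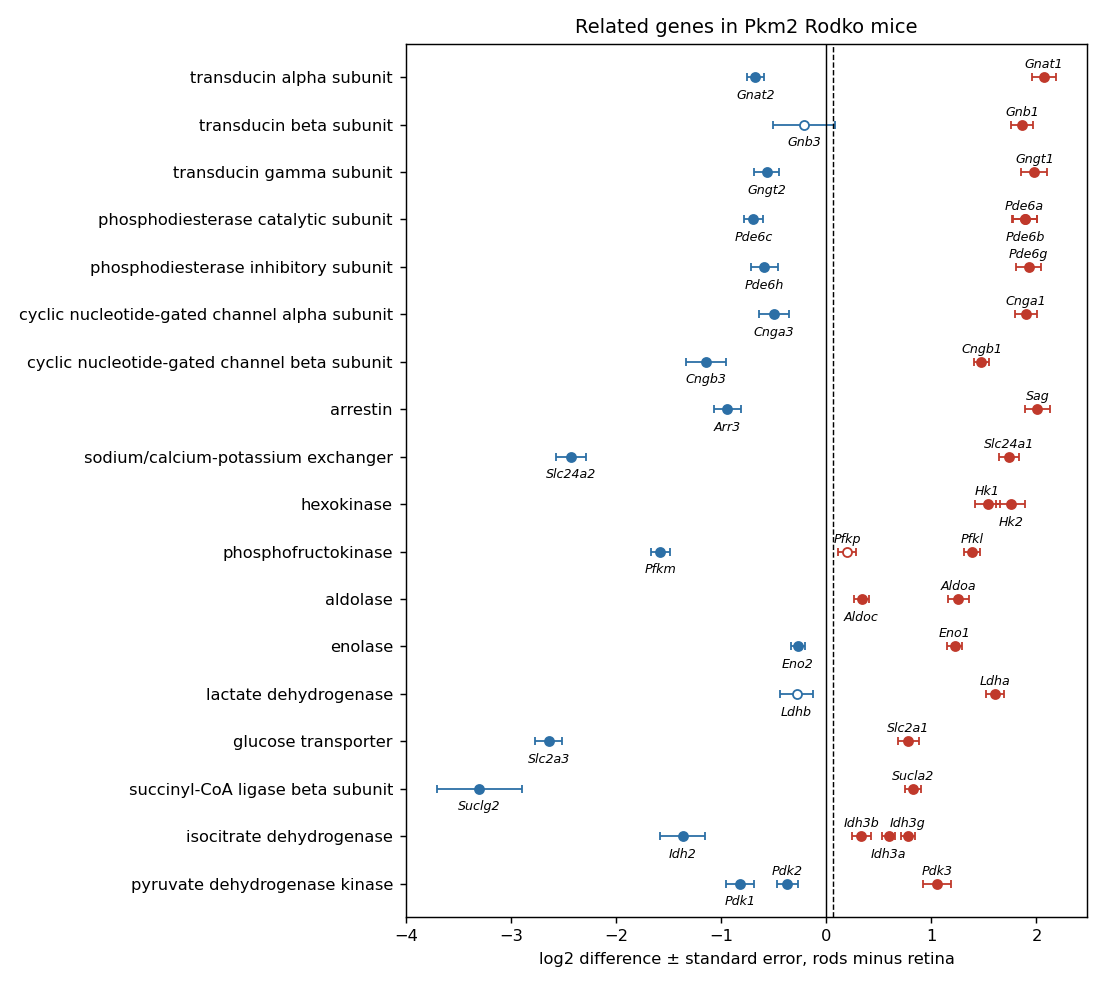
Log2 difference of rods minus retina (horizontal axis, ± standard error from limma) for related genes, by family, with red above 0, blue below 0, open circles for genes not called and the median gene as a dashed line. In each photoreceptor family the rod member lies between 1.48 and 2.07 and the cone member lies below 0.

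Among 21 genes of glycolysis and lactate handling, 16 were enriched and 3 depleted, with a median of 1.09 (1.04 to 1.16 in the 3 pairs). With total reads the median was 0.51, with 13 enriched and 6 depleted. The list took 2.00% to 2.18% of reads in Rodko rods and 1.39% to 1.42% in Rodko retina. Both hexokinases, which phosphorylate glucose, were among the most enriched. Hk2 (ENSMUSG00000000628) had 29625, 29894 and 39317 scaled reads in the 3 rod libraries and 9337, 8728 and 11057 in the 3 retina libraries, a log2 difference of 1.76 (SE 0.138, adjusted p = 3.26e-08 from limma). Hk1 was at 1.53. Ldha, the lactate dehydrogenase subunit that favours lactate, had 51430, 53703 and 48019 scaled reads in the 3 rod libraries and 17157, 16702 and 16308 in the 3 retina libraries, a log2 difference of 1.61 (SE 0.086, adjusted p = 6.94e-10 from limma). Each of these genes had rod libraries above all retina libraries. The lactate carriers Slc16a1 and Slc16a3 were at 1.47 and 1.32, and Gapdh, Aldoa, Pgk1, Eno1 and Pgam1 were at 1.37, 1.26, 1.24, 1.22 and 1.09. Pkm, at 0.76, was below all of these, and the glucose transporter Slc2a1 stood beside it at 0.78, a call that was lost with total reads (0.20). Pkm was not the lowest glycolytic enzyme. Tpi1 differed less, with means of 17328 scaled reads in rods and 11765 in retina. Gpi1 was close to Pkm, with means of 20933 and 12203.

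Each depleted member had a related gene on the list that was enriched with TMM. Pfkm, the phosphofructokinase of muscle and many neurons, had 649, 617 and 574 scaled reads in the 3 rod libraries and 1744, 1909 and 1848 in the 3 retina libraries, and Pfkl, the liver form, had 16424, 15611 and 15397 in rods and 5999, 6081 and 6075 in retina. The log2 differences were -1.58 and 1.38. Pfkp was not called (0.20, adjusted p = 0.0565 from limma). It was enriched with the replicate block (adjusted p = 0.0264 from limma) and turned to -0.39 with total reads. Slc2a3, the neuronal glucose transporter, had 200, 206 and 219 scaled reads in the 3 rod libraries and 1182, 1421 and 1321 in the 3 retina libraries, a log2 difference of -2.64 (SE 0.131, adjusted p = 3.45e-10 from limma). Eno2, neuronal enolase, was at -0.27 beside Eno1, and Aldoc was at 0.34 beside Aldoa and turned to -0.25 with total reads. Ldhb, the subunit that favours pyruvate, was at -0.28 and not called (adjusted p = 0.117 from limma), and the replicate block gave 0.0152 by the same test.

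Of 26 genes of pyruvate dehydrogenase and the citric acid cycle, 20 were enriched and 5 depleted, with a median of 0.73. With total reads the median was 0.14, with 12 enriched and 7 depleted. Mdh2, mitochondrial malate dehydrogenase, was the highest at 1.32, followed by Dld (1.14) and Sdha (1.08). Suclg2, the GTP-forming beta subunit of succinyl-CoA ligase, was the lowest. It had 18.9, 11.8 and 9.73 scaled reads in the 3 rod libraries and 185, 146 and 95.3 in the 3 retina libraries, a log2 difference of -3.30 (SE 0.405, adjusted p = 3.54e-06 from limma), and its ATP-forming partner Sucla2 was at 0.83. Idh2, the NADP-dependent isocitrate dehydrogenase of mitochondria, was at -1.36, whereas the 3 subunits of the NAD-dependent enzyme were at 0.59 (Idh3a), 0.33 (Idh3b) and 0.77 (Idh3g). With total reads Idh3b was at -0.25, and on the deposited values Idh3a was at -0.01. Among the kinases that inhibit pyruvate dehydrogenase, Pdk3 was enriched (1.06) and Pdk1 and Pdk2 were depleted (-0.82 and -0.37). Pcx, pyruvate carboxylase, was at -1.16.

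The proteins of oxidative phosphorylation are encoded partly in the nucleus and partly in mitochondrial DNA, and the parts went opposite ways. Of 73 nuclear-encoded genes, 72 were enriched and none was called depleted by limma, with a median of 0.77. Ndufa6 was not called (0.13, and -0.46 with total reads). With total reads the median was 0.18, with 25 enriched and 4 depleted. All 13 mitochondrially encoded mRNAs, which are translated by the ribosomes inside mitochondria, were depleted, with a median of -4.60 and values from -4.67 to -4.33. The gene with the most of these reads, mt-Co1, had 13841, 7984 and 10469 scaled reads in the 3 rod libraries and 267708, 208816 and 238013 in the 3 retina libraries, a log2 difference of -4.50 (SE 0.179, adjusted p = 6.61e-11 from limma). The 13 mRNAs took 0.122% to 0.227% of reads in Rodko rods and 5.19% to 6.55% in Rodko retina. In both fractions replicate 1 was the highest and replicate 2 the lowest for mt-Co1. Reads of these genes are uncertain where nuclear copies match them. The copy Gm10222, for example, had 503, 267 and 355 scaled reads in rods, against 503, 264 and 359 for mt-Nd4l. By the naming rule, which leaves out symbols that start with Gm or LOC or end in Rik, the 12 most depleted genes were all encoded in mitochondrial DNA, and the ribosomal RNAs mt-Rnr1 (-4.69) and mt-Rnr2 (-4.61) were among them.

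The 78 cytosolic ribosomal protein genes stayed near the median gene, with a median of 0.18 that turned to -0.41 with total reads and -0.43 on the deposited values. Of these, 35 were enriched and 1 was depleted with TMM, against 37.9% and 37.6% of all genes tested. With total reads 2 were enriched and 51 depleted, against 2237 and 9364 of all 16425 genes. Rpl22 (ENSMUSG00000028936), the gene of the tagged protein, was the highest. It had 3273, 2986 and 2752 scaled reads in the 3 rod libraries and 1720, 1564 and 1544 in the 3 retina libraries, a log2 difference of 0.90 (SE 0.0901, adjusted p = 4.35e-07 from limma). The depleted member, Rps10, had at most 30.9 scaled reads in any library, and reads of ribosomal protein genes can be shared with their many processed pseudogenes.

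Of 12 long noncoding RNAs, 10 were depleted and 2 enriched, with a median of -2.98. Malat1, a nuclear RNA, had 239, 277 and 373 scaled reads in the 3 rod libraries and 2251, 2401 and 2593 in the 3 retina libraries, a log2 difference of -3.05 (SE 0.257, adjusted p = 6.98e-08 from limma). Meg3, an RNA of an imprinted locus that many neurons express, had 440, 272 and 158 scaled reads in the 3 rod libraries and 6020, 5286 and 2590 in the 3 retina libraries, and Snhg11 was the lowest at -4.48. Both of these had their lowest value in replicate 3 in rods and in retina. The enriched RNAs were Vax2os (0.82), which lies beside the eye factor gene Vax2, and Peg13 (0.57), which turned to -0.01 with total reads. Over all genes with a GENCODE class, 40.0% of 13341 protein-coding genes were enriched and 38.9% depleted. The shares were 14.9% and 47.0% for 396 lincRNA genes, 15.6% and 48.3% for 352 antisense genes, and 48.6% and 5.07% for 1145 processed pseudogenes, whose reads can belong to the parent gene. Whether counting used strand is not given in the sources used here, so an antisense gene cannot be told apart from its partner. By total exon length per gene, the fifth of protein-coding genes with the shortest total had a median of 0.27 and the fifth with the longest -0.18.

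Markers of 8 other cell populations (bipolar, Müller, amacrine, ganglion and horizontal cells, pigment epithelium, vessels and microglia) were depleted together. Of 111 tested, 105 were depleted and 2 enriched, against 37.6% and 37.9% of all genes tested. The median of -3.27 corresponds to a 9.63-fold lower level in Rod-TRAP RNA than in total retinal RNA. Whether the marker reads left in Rod-TRAP RNA came from rods or from other cells was not tested. The retinal pigment epithelium lies outside the neural retina. The medians of the 8 lists lay between -3.48 for amacrine cells and -2.83 for the pigment epithelium. In the 3 replicate pairs the medians were -2.94 to -3.56 for bipolar cells, -2.90 to -3.26 for Müller glia and -3.16 to -3.78 for amacrine cells.

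**Figure D4:**
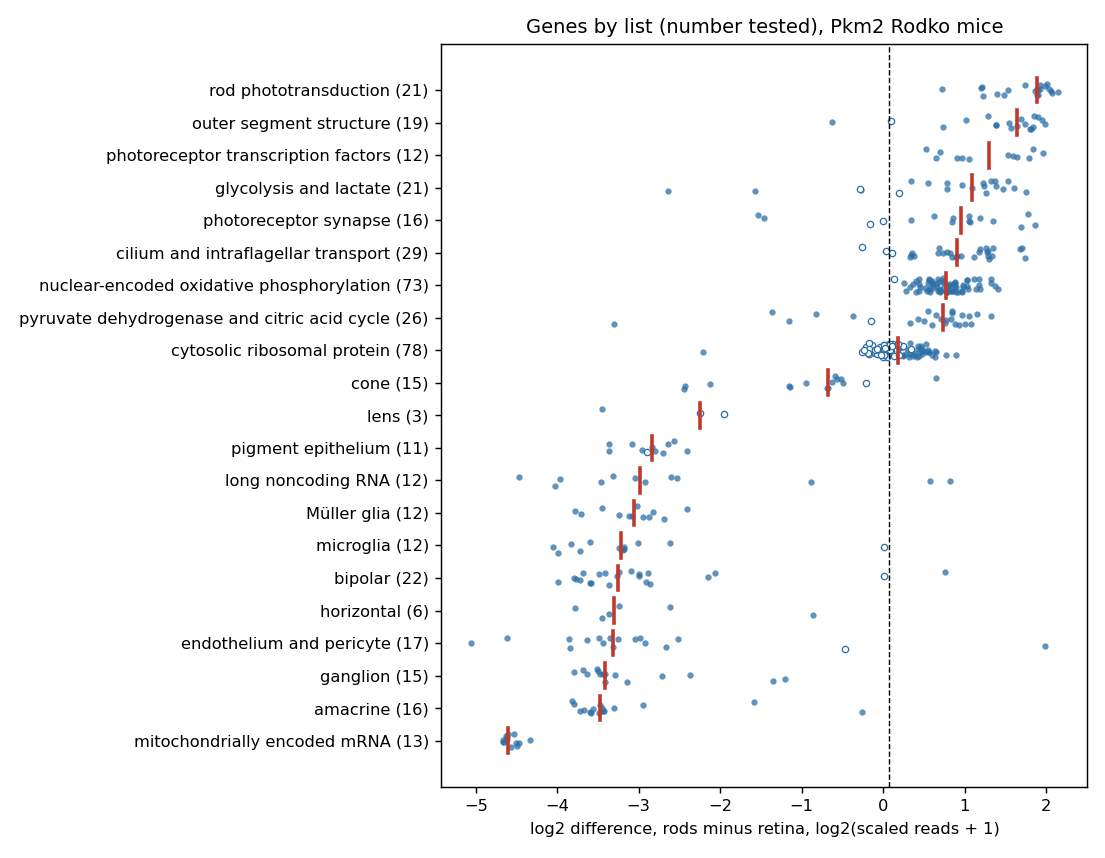
Log2 difference of rods minus retina (horizontal axis) for each gene (point) of 21 lists (rows, number of genes tested in brackets), with open circles for genes not called, red bars at the list medians and the median gene as a dashed line. List medians run from 1.89 for rod phototransduction to -4.60 for mitochondrially encoded mRNAs, and the point of Tie1 below -5 is a gene with no reads in rods.

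Grm6, the glutamate receptor of ON bipolar cells, had 108, 97.2 and 97.3 scaled reads in the 3 rod libraries and 1200, 1617 and 1392 in the 3 retina libraries, a log2 difference of -3.78 (SE 0.126, adjusted p = 2.42e-11 from limma). No rod library came near a retina library. Glul, the glutamine synthetase of Müller glia, had 4666, 4431 and 4366 scaled reads in the 3 rod libraries and 29714, 32594 and 33389 in the 3 retina libraries, a log2 difference of -2.83 (SE 0.0968, adjusted p = 2.42e-11 from limma). Gad1, which makes GABA in amacrine cells, had 316, 271 and 299 scaled reads in the 3 rod libraries and 3100, 3481 and 3349 in the 3 retina libraries, a log2 difference of -3.48 (SE 0.152, adjusted p = 1.19e-10 from limma). The Müller list took 0.0375% to 0.0448% of reads in rods and 0.451% to 0.506% in retina, and the amacrine list 0.0142% to 0.0147% and 0.119% to 0.131%. Ganglion cell genes were at a median of -3.42, with Nefm, a neurofilament, at -3.80 and the tubulin Tubb3, which other neurons share, at -1.20.

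The pigment epithelium list was uneven between replicates in both fractions. It took 0.0262% to 0.0864% of reads in retina and 0.00243% to 0.00888% in rods. Dct, an enzyme of melanin synthesis, had 502, 217 and 56.4 scaled reads in the 3 rod libraries and 2739, 2152 and 501 in the 3 retina libraries, and Pmel, a melanosome protein, had 152, 95.9 and 20.4 in rods and 1424, 1293 and 187 in retina. For both genes replicate 3 was the lowest in each fraction. Their log2 differences were -2.96 (adjusted p = 0.0219) and -3.36 (adjusted p = 0.0101), both from limma. Without rod replicate 3 both calls were lost (-2.11 and -2.52), and that of Dct was also lost without retina replicate 1 or 2 (-2.49 and -2.67). Of 9 lens genes, 3 had enough reads to be tested. Cryab, a small heat shock protein that is also made outside the lens, was depleted (-3.45), and Crybb2 and Cryaa (-2.24 and -1.95) were not called without the replicate block and were depleted with it (adjusted p = 0.00824 and 0.0045 from limma).

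Several genes on these lists were not lower in rods, or were lower by a small amount. Vtn (ENSMUSG00000017344), vitronectin, was placed on the list of endothelium and pericytes and was enriched to the same degree as rod genes. It had 50071, 48790 and 44452 scaled reads in the 3 rod libraries and 12875, 11814 and 11588 in the 3 retina libraries, a log2 difference of 1.98 (SE 0.0919, adjusted p = 2.08e-10 from limma). Of the 17 genes of this list that were tested, 15 were depleted, with a median of -3.32. Its summed reads (0.209% to 0.236% in rods, 0.113% to 0.118% in retina) included Vtn and were higher in rods. Tie1, a receptor of endothelial cells, had 0 reads in all 3 rod libraries and 36.9 scaled reads on average in retina, so that it was at least 10.4-fold lower against a floor of 3 reads per library. With Tie1 at that bound the list median was -3.25. Lrit3, which organises the receptors of ON bipolar cells from the photoreceptor side, was enriched. It had 1334, 1825 and 1992 scaled reads in the 3 rod libraries and 920, 1079 and 1010 in the 3 retina libraries, a log2 difference of 0.76 (SE 0.134, adjusted p = 0.000128 from limma), a call that was lost with total reads (0.17). Prkca, protein kinase C alpha, which labels rod bipolar cells in immunostaining, had 3962, 4360 and 5734 scaled reads in the 3 rod libraries and 3813, 4978 and 5097 in the 3 retina libraries, and the fractions overlapped (0.01, adjusted p = 0.95 from limma, -0.57 with total reads). Gjd2, the connexin of AII amacrine cells that photoreceptors also use, was at -0.26 (adjusted p = 0.0148 from limma), and this call was lost without retina replicate 3 (-0.23).

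Outside the lists and mitochondrial DNA, and with the same symbols left out, which removes copies such as Gm10222 (-4.62) and Gm10925 (-4.60), the most depleted genes with at least 200 scaled reads were Crhbp (-4.31), Cacna1b (-4.22), Spock3 (-4.22), Nyap2 (-4.21), Gabrb2 (-4.07), B3galnt1 (-4.07), Col9a1 (-4.06), Slc4a3 (-4.06), Abca8b (-4.04) and Ptprz1 (-4.02), named after their values were seen because mitochondrial genes filled the rule. Cacna1b is a calcium channel of synaptic terminals, Gabrb2 a subunit of the GABA-A receptor and Ptprz1 a receptor phosphatase of glia. Crhbp, which binds corticotropin-releasing hormone, had 60.4, 6.57 and 15.6 scaled reads in the 3 rod libraries and 437, 385 and 352 in the 3 retina libraries, with rod replicate 1 far above the other rod libraries.

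The same enrichment was measured in control mice, whose libraries are separate from those of Rodko mice. Over the 16200 genes, the log2 differences of the 2 genotypes correlated with Pearson's r = 0.971, a description across genes that are not independent and that share the TMM scaling. Of 12230 genes called in Rodko mice and 12046 called in controls, 11301 were called in the same direction in both and 0 in opposite directions. In the test of the difference between genotypes, 0 genes passed by limma or by edgeR and 1 (Pkm) by DESeq2. At an unadjusted p under 0.05, 642 genes (3.96%) differed by limma, 453 of them (2.8%) with a lower value in Rodko mice, 792 by edgeR and 783 by DESeq2. That count was 1147 with the replicate block that pairs the libraries. Leaving out 1 library moved it to between 386 and 1219, with 1219 without rod replicate 1 of the Rodko mice, 386 without retina replicate 2 of the Rodko mice and 390 without retina replicate 1 of the controls. The 3 smallest p-values belonged to Olfm4, Pkm and Adpgk. Olfm4, a secreted olfactomedin, was at -5.15 in Rodko mice and -2.57 in controls, with 1.31 to 5.03 scaled reads in Rodko rods. Adpgk, the ADP-dependent glucokinase, had 279, 253 and 241 scaled reads in the 3 rod libraries and 231, 271 and 247 in the 3 retina libraries, so that the fractions overlapped (0.05), against 0.73 in controls. With total reads the Rodko value of Adpgk was -0.53. Neither difference between genotypes passed the adjustment (adjusted p = 0.785 and 0.977 from limma).

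**Figure D5:**
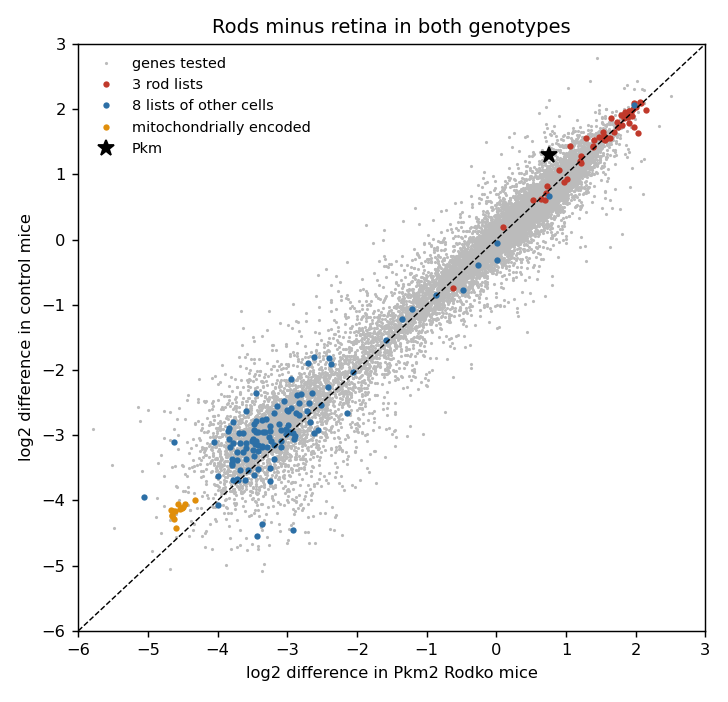
Log2 difference of rods minus retina in Pkm2 Rodko mice (horizontal axis) and in control mice (vertical axis) for each gene tested (grey), with genes of 3 rod lists in red, of 8 lists of other cells in blue, mitochondrially encoded mRNAs in orange and Pkm as a star. The dashed line marks equal values. Pkm lies at 0.76 and 1.30, and most blue points and all orange points lie above the line.

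Rod genes had nearly the same enrichment in both genotypes. The median of the 52 genes of the phototransduction, outer segment and transcription factor lists was 1.66 in Rodko mice and 1.65 in controls. The median of the 111 markers of other cells was -3.27 and -2.96. Of these markers 86 had a lower value in Rodko mice, against 8023 of all 16200 genes, and 12 had an unadjusted p under 0.05. The count over all genes includes enriched genes, so it is not a matched background for markers that were mostly depleted. Over all genes tested, the slope of the control value on the Rodko value was 0.91. Whether the shift is particular to these markers was not tested. The 13 mitochondrially encoded mRNAs were all lower in Rodko mice, with medians of -4.60 and -4.15 and none with an unadjusted p under 0.05 by limma. No gene of these lists passed the adjustment over all genes.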

How the data were processed

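Total retinal RNA and Rod-TRAP RNA were sequenced in 12 libraries, 3 for each genotype and fraction. The authors deposited a signal per gene and library. Per the file's values, it is the count of reads over a size factor that was set separately for rods and for retina, kept to 1 decimal place, and 99.997% of values were whole reads within a tolerance of 0.05. The submitters' processing notes name CASAVA 1.8.2, HISAT2, DESeq2, edgeR and GRCm39. How strand and shared reads were handled is not given in the sources used here.

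Reads were scaled by TMM over 12 libraries (13458890 to 22790074 reads). With R 4.3.3, limma 3.58.1 fitted 4 group means to log2(scaled reads + 1) with a trend of variance along the mean, and the contrast was Rodko rods minus Rodko retina. Benjamini-Hochberg adjustment covered the 16200 genes tested. The alternatives were DESeq2 1.42.0 and edgeR 4.0.16 on whole reads, other scalings, filters, pseudocounts and left-out libraries. The fit was also run on simulated data in which few genes differed between fractions. Far more genes differed here, so that run is no test of the scaling. Python 3.11.15, numpy 2.4.6, pandas 2.3.3 and matplotlib 3.10.9 made the tables and figures. Names, classes and exon lengths came from GENCODE vM21 by identifier (98.6% of genes tested matched).

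The replicate numbers paired the libraries. Deviations of rod and retina libraries from their group means, over 9119 genes, correlated at 0.456, 0.354 and 0.518 for the same number in Rodko mice and at 0.184, 0.464 and 0.547 in controls, and each library correlated best with its own number. The labels do not say what a number stands for.

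Members and gene lists (21 lists, 460 symbols, of which 449 reached the minimum) were chosen with earlier results of these data known. Genes named were Pkm, the 12 most enriched and 12 most depleted genes with no Gm, Rik or LOC symbol, without overlap and with a mean of at least 200 scaled reads, the 3 most abundant, the highest and the lowest members of each list, members called against their list, and the 3 genes with the smallest p for a difference between genotypes. Some of these genes are not reported here. Members of 18 sets of related genes were added after their values were seen. The precision is set by 3 libraries per group.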

Additional observations from a re-analysis of the deposited data

How the results depend on the processing

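The scaling of the fractions against each other had the largest effect. With total reads, 2237 genes were enriched and 9364 depleted, and on the deposited values 2108 and 9510. The value of Pkm was 0.15 on the deposited values and no longer past the threshold. The ribosomal protein list turned to -0.41 with total reads and -0.43 on the deposited values. Of the 148 named genes, some changed sign and were called with TMM, with the other scaling or with both. With total reads and on the deposited values, in that order, these were Aldoc (-0.25 and -0.27), Pfkp (-0.39 and -0.41), Ndufa6 (-0.46 and -0.48), Adpgk (-0.53 and -0.55), Idh3b (-0.25 and -0.27), Rpl4 (-0.12 and -0.14), Neurod1 (-0.0598 and -0.0787), Syt1 (-0.24 and -0.26), Prkca (-0.57 and -0.59), Rpl3 (-0.44 and -0.46) and Peg13 (-0.0149 and -0.0338), and Idh3a on the deposited values alone (-0.0108). Rpl4, Neurod1 and Peg13 were called with TMM and not with total reads (adjusted p = 0.117, 0.601 and 0.821 from limma). The median gene moved to -0.54 with total reads and to -0.56 on the deposited values. RLE size factors gave 5651 and 6388 calls.

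With at least 10 reads required in every Rodko library, 3781 of 13319 genes were depleted, since genes with few reads in rods are removed. With a log2 difference of at least 1 also required, 1567 were enriched. edgeR on the recovered reads called 6188 genes enriched and 6105 depleted, and DESeq2 5597 and 6369. For the difference between genotypes, DESeq2 called 1 gene (Pkm), limma without a trend 1 gene (Kcnh8) and limma without rod replicate 1 of the Rodko mice 1 gene (Olfm4). The cause was not tested. Leaving out 1 library at a time, the counts were 5734 to 6179 enriched and 5532 to 6217 depleted, the value of Pkm was 0.70 to 0.79, and 0 to 1 genes differed between genotypes. With the replicate number as a block, the pairing of the libraries gave 6408 enriched and 6253 depleted genes, and of 148 named genes 6 passed the threshold that had not done so before (Pfkp, Cryaa, Snap25, Ldhb, Crybb2 and Rpl3). The block changed no other call among them. Under edgeR none of the 148 named genes changed its call. Depth was 13458890 to 22790074 reads per library, and genes under a mean of 10 scaled reads were not tested.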
